A study of Mus musculus with 3 samples.

Results

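The nuclei described here were the 350 of 11675 nuclei of the E16.5 forelimb library with the most open chromatin at 5 genes used as pericyte markers, Rgs5, Abcc9, Kcnj8, Cspg4 and Notch3. Only nuclei with 10000 or more counts entered. In each of them the counts in peaks over the body of each gene and 2000 bases upstream were divided by that gene's mean over these nuclei, the 5 values were summed, and the sum was divided by the total count of the nucleus. The highest 3% formed the gated nuclei, and the remaining 11325 nuclei are called the other nuclei. Because these 5 loci chose the nuclei, their values in the gated nuclei are given below as a description and support nothing. The other comparisons read genes and regions outside the gate, gate loci left out of the choice, or all nuclei with no gate. The label under which the nuclei were chosen was pericyte-like. Loci outside the gate gave that label little support, as set out below, so the nuclei are called by the gate alone.

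Pericytes are mural cells that wrap capillaries, share the basement membrane with the endothelium and pass into vascular smooth muscle along the vessel tree. Kcnj8 and Abcc9 encode the pore and the sulphonylurea receptor of an ATP-sensitive potassium channel that sets mural tone, Notch3 is the receptor through which mural cells read Jagged ligands on endothelium, Rgs5 damps G-protein signalling, and Cspg4 encodes the NG2 proteoglycan, which cartilage and other mesenchyme also carry. Single-nucleus ATAC-seq counts transposase cuts per called peak and nucleus, so it measures whether a locus was open and not whether it was transcribed.

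The study followed cells that had expressed Hic1, a transcriptional repressor of mesenchymal progenitors, through limb development. It held 3 chromatin libraries, 1 for each age (E12.5, E14.5, E16.5) with no replicate, so no difference between groups of nuclei or between ages could be tested, and the 95% intervals given below are exact and cover counting error only. All 3 came from C57BL/6J embryos labelled Hic1CreERT2/CreERT2;Rosa26LSLtdTomato/tdTomato, in which Cre is driven from the Hic1 allele itself and both copies of the reporter are present, after dams had received 7.5 mg tamoxifen by gavage on the tenth embryonic day. E12.5 and E14.5 libraries were made from forelimb, and the E16.5 library from a segment around the elbow that held the end of the stylopod and the start of the zeugopod. The study's methods describe pooled embryos of both sexes and a sort of tdTomato+ cells negative for CD45, CD117, CD31, CD11b, F4/80 and Ter119, that is, depleted of blood and endothelium, with no gate for or against mural cells. From the youngest to the oldest, the files held 8294, 20023 and 14048 nuclei, 42365 in all, with median counts of 6004, 8575 and 26694, and 32.1%, 41.9% and 83.1% of them reached 10000 counts. Peaks had been called in each library separately. Any pair of libraries shared between 151 and 401 barcodes, at most 2.85% of a library.

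The stretches of chromatin below were the peaks that most separated the gated from the other nuclei at each of the 5 loci, among peaks with at least 100 counts in the gated nuclei, and are shown because the choice of nuclei rested on them. They were read from the RefSeq sequence of GRCm38.p6 on the + strand. Each is the central 300 bases of the peak, except that the 250 bases before the Kcnj8 start site are given, since the central window of that peak reached into the transcript's UTR. Peaks are called promoter peaks where any of their bases touch the promoter. The windows of the Cspg4 and Notch3 promoter peaks lay inside those genes, in introns, from 1265 and 1105 bases after the start sites. Capitals mark letters of the motifs searched further below, a forkhead match in Rgs5 (TGTTTAC, here on the other strand) and an AP-1 match in the Cspg4 intron (TGANTCA). The rule that picked these peaks was set after the values had been seen.
Rgs5 intron peak, chr1:169672055-169672354: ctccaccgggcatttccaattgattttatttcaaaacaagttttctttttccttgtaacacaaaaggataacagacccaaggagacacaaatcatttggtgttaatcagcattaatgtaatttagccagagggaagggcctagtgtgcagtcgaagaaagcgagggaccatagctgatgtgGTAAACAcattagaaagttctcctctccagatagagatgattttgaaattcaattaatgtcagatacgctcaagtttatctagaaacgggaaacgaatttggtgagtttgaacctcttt
Abcc9 intron peak, chr6:142667689-142667988: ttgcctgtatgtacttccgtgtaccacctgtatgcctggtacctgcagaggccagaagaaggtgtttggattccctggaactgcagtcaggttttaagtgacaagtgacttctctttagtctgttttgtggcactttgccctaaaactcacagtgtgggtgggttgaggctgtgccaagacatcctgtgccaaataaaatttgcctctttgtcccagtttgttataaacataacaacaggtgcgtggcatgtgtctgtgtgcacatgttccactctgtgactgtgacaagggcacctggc
Kcnj8 promoter peak, chr6:142571615-142571864: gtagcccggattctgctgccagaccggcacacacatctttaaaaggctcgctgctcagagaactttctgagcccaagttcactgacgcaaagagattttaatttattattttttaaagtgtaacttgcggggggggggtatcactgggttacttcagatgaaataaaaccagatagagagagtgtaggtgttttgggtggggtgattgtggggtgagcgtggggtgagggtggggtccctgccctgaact
Cspg4 promoter peak, chr9:56866298-56866597: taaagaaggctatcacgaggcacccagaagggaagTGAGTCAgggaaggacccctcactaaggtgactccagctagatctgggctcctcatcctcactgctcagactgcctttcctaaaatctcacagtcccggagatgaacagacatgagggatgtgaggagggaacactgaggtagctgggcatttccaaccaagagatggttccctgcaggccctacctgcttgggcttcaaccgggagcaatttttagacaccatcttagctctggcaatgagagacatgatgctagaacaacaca
Notch3 promoter peak, chr17:32165448-32165747: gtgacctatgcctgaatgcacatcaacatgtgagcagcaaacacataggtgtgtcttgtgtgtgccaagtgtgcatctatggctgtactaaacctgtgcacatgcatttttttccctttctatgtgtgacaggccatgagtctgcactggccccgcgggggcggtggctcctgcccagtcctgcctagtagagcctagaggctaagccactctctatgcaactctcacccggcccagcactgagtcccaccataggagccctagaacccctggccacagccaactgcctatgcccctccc
In gated against other nuclei, these whole peaks held 24.7 against 2.99 counts per 1000000 counts in all peaks (CPM) at the Rgs5 intron, 24.5 against 7.11 CPM at the Abcc9 intron, 111 against 22.7 CPM at the Kcnj8 promoter, 62.1 against 42.9 CPM at the Cspg4 promoter and 47.9 against 25.4 CPM at the Notch3 promoter. No match to a searched motif was found in the Abcc9, Kcnj8 and Notch3 windows, which says only that these letters are not in these windows.

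The choice leaned on Rgs5 and Kcnj8. Rgs5 (chromosome 1, 169655501-169695813, 12 peaks) held 124 CPM in the gated and 20.6 CPM in the other nuclei, a ratio of 6.02 (5.47-6.60), and 72.3% against 27.8% of nuclei had a count there. Kcnj8 (chromosome 6, 142564837-142571614, 2 peaks) held 114 against 23.5 CPM, a ratio of 4.84 (4.38-5.34), with counts in 70.3% against 30.4% of nuclei. Its neighbour Abcc9 (chromosome 6, 142587862-142702315, 17 peaks) held 161 against 59.7 CPM, a ratio of 2.70 (2.49-2.93). Notch3 (chromosome 17, 32120820-32166852, 5 peaks) and Cspg4 (chromosome 9, 56865033-56899870, 9 peaks) moved least, with ratios of 1.72 (1.54-1.92) and 1.34 (1.24-1.45). Cspg4 was open in most nuclei on either side, with a count in 79.7% of gated and 79.2% of other nuclei. Rgs5 supplied 34.8% of the summed score of the gated nuclei and was the leading locus in 172 of them, Kcnj8 supplied 28.9% and led in 111, and Cspg4 supplied 8.73% and led in 4. The Kcnj8 share rested on a single element, since 97.3% of that locus's counts in the gated nuclei lay in its promoter peak.

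No gap in the score set the gated nuclei apart. The lowest gated nucleus scored 3.828 per 10000 counts and the highest other nucleus 3.827, against a median of 1.30 over all 11675 nuclei and a highest score of 9.71. Within 10% of the threshold lay 137 gated nuclei above it and 183 other nuclei below it. Few gated nuclei had counts across the whole marker set. Of 350, 50 (14.3%) had a count at all 5 loci, 118 had counts at 3 loci and 8 at 1 locus only. Among the other nuclei, which were deeper, 485 (4.28%) had a count at all 5 loci and 602 at none. Counts per nucleus are sparse, so a locus without a count is not shown to be closed.

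The gated nuclei were also shallow. Their counts per nucleus ran from 10034 to 67861 with a median of 18556, while the other nuclei ran from 10001 to 155308 with a median of 31571, and 56.3% against 22.9% lay below 20000 counts. Of 1442 nuclei with 10000 to 15000 counts 119 were gated, and of 188 nuclei with 65000 to 70000 counts 1 was. The score was divided by the total, so in a shallow nucleus a single fragment moved it further. When every nucleus was thinned to 5000 fragments before scoring, the chosen nuclei had a median of 29166 counts as deposited and shared 135 of 350 nuclei (38.6%) with the gate as applied. Promoter peaks held a median of 36.2% of counts in gated and 36.4% in other nuclei.

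**Figure D1:**
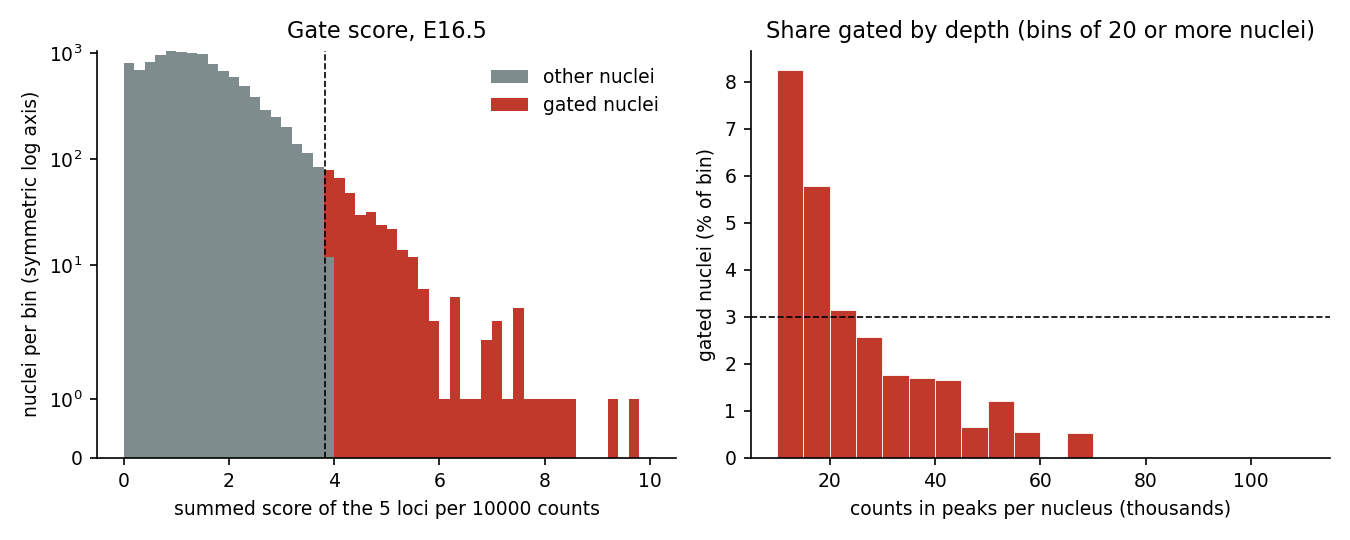
Distribution of the summed 5-locus score per 10000 counts in the gated and other E16.5 nuclei (left). The right panel gives the percentage of E16.5 nuclei that were gated, in bins of counts per nucleus. The score falls without a break through the threshold near 3.83, and gated nuclei gather at low depth, with a median of 18556 counts against 31571.

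To read each marker in nuclei that it had not helped to choose, the 5 loci were left out of the gate in turn. Abcc9 and Kcnj8 lie side by side on chromosome 6 and were left out together. Rgs5 then held 28.9 CPM in the gated against 22.5 CPM in the other nuclei, a ratio of 1.29 (1.06-1.54), in place of 6.02. Kcnj8 held 27.6 against 25.2 CPM, a ratio of 1.095 (0.902-1.32), in place of 4.84. The ratios of Abcc9, Cspg4 and Notch3 were 0.975 (0.858-1.104), 0.986 (0.904-1.07) and 0.866 (0.743-1.005). Of the 5, Rgs5 alone had an interval above 1, and the median of the 5 ratios was 0.986.

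The same procedure with other marker loci in the same library shows what it can return. For 5 chondrogenic loci (Acan and Col2a1, the aggrecan and type II collagen of cartilage matrix, with Chad, Matn1 and Cnmd), the left-out ratios ran from 5.15 to 8.25 with a median of 6.51. For 5 fibrogenic loci (Cd34, Dpt, Pi16, Clec3b and Mfap5, markers of connective-tissue fibroblasts), they ran from 1.32 to 1.81 with a median of 1.55. For 5 endothelial loci (Pecam1, Cdh5, Kdr, Tek and Tie1), which mark cells that the sort was meant to remove, they ran from 0.510 to 1.03 with a median of 0.857. Inside its own gate the endothelial Tie1 locus nevertheless reached a ratio of 42.6 (36.9-49.2), while the highest left-out ratio of that set was 1.03, so a large ratio at a locus used for choosing was had without the left-out ratios following. The median left-out ratio of the pericyte loci, 0.986, lay between those of the endothelial and the fibrogenic sets.

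**Figure D2:**
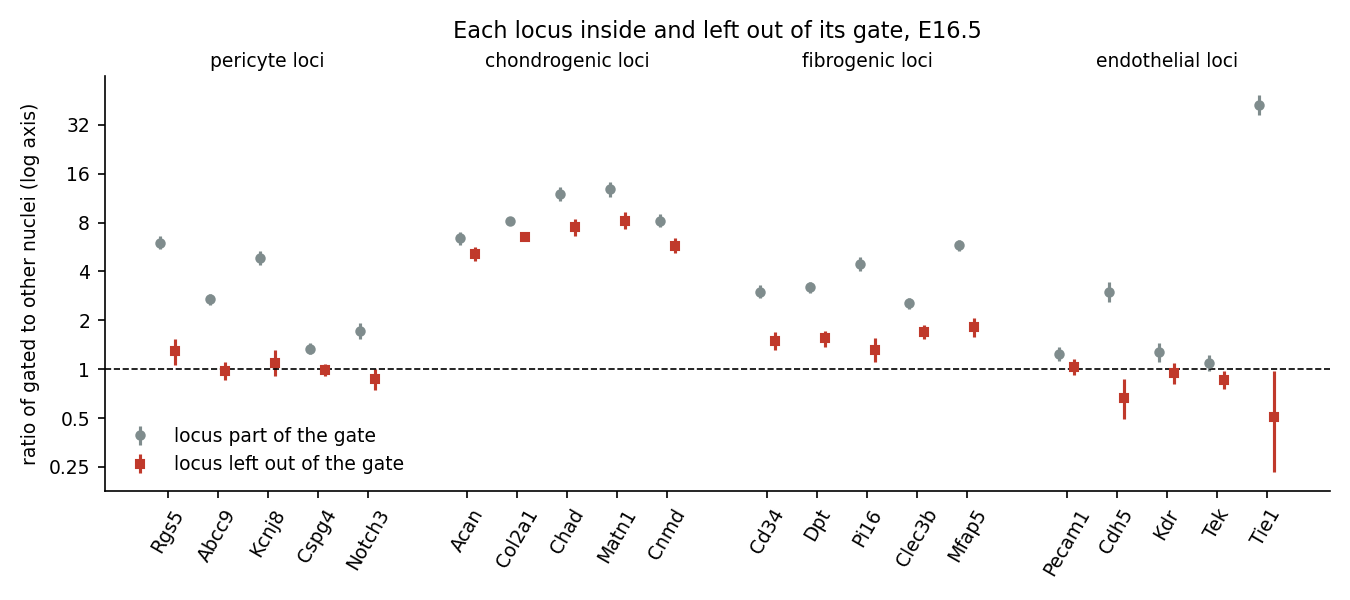
Ratio of gated to other E16.5 nuclei at each of 5 loci in 4 marker sets (log axis), when the locus took part in choosing the nuclei and when it was left out of the choice, with exact 95% counting intervals. Left out, the pericyte loci lie between 0.866 and 1.29, while the chondrogenic loci stay between 5.15 and 8.25.

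The loci were also compared pair by pair over all 11675 nuclei, without any gate, by counting nuclei with a count at both loci and dividing by the number to be had if the loci were independent within 20 bins of depth. The 10 pericyte pairs gave 0.961 to 1.12 with a median of 1.001. Abcc9 with Kcnj8 was the highest, with 2346 nuclei against 2086 expected (1.12, 1.08-1.17), and Rgs5 with Abcc9 gave 1.06 (1.01-1.11) and Rgs5 with Kcnj8 1.06 (1.0001-1.12). Every pair with Cspg4 lay between 0.996 and 1.01. Notch3 with Kcnj8 gave 0.961 (0.920-1.003). Abcc9 with Notch3, at 0.965 (0.932-0.9989), was the only pericyte pair with an interval wholly below 1. Chondrogenic pairs ran from 1.11 to 1.55 (median 1.28), fibrogenic pairs from 1.05 to 1.19 (median 1.12) and endothelial pairs from 0.869 to 1.04 (median 0.982). Pairs among Rgs5, Abcc9 and Kcnj8 thus lay slightly above the depth-matched number, and no pair with Cspg4 or Notch3 had an interval wholly above 1. Abcc9 and Kcnj8 are neighbours on chromosome 6, and the part of that in their value was not tested. The intervals take the expected number as fixed, and the bound for Rgs5 with Kcnj8 lay close to 1.

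**Figure D3:**
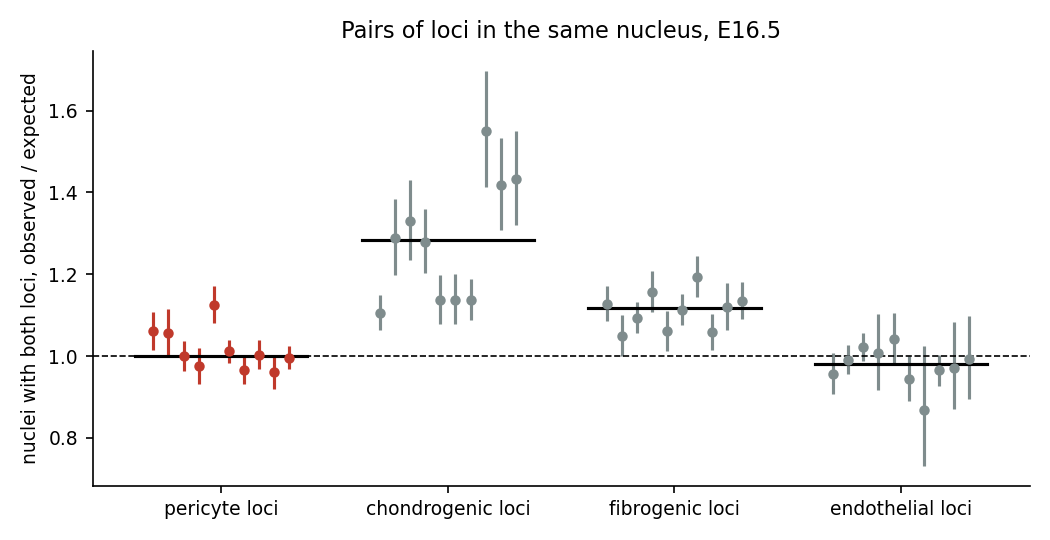
Observed over expected number of E16.5 nuclei with a count at both loci of a pair, within 20 depth bins, for 10 pairs in each of 4 marker sets, with exact 95% counting intervals. Pericyte pairs have a median of 1.001, chondrogenic pairs a median of 1.28.

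Few genes outside the gate separated gated from other nuclei. Of 15959 genes tested, those with enough expected fragments and no peak shared with a gate gene, 34 were at least 1.5-fold higher in the gated nuclei (0.213%) and 140 were at least 1.5-fold lower (0.877%), and the median log2 ratio over all of them was -0.0072. Other marker sets gave more higher genes in gates of the same size: 1501 (9.39%) for the chondrogenic, 193 (1.2%) for the fibrogenic and 172 (1.06%) for the endothelial loci. Lower genes numbered 1488, 403 and 53 in those gates, so the endothelial gate gave fewer of them than the 140 here. The largest rise among genes over 1000000 bases from the gate was at Yipf7, with 11.1 CPM in gated and 5.21 CPM in other nuclei (log2 ratio 1.09, 0.62-1.52). Gm45861, which shares peaks with Poteg and cannot be told apart from it there, followed with 15.98 against 7.65 CPM (1.06), and Cox7b2, a cytochrome oxidase subunit, with 15.98 against 7.70 CPM (1.05). Il7r, a cytokine receptor of lymphoid cells, stood at 0.98 and Snap25, a neuronal exocytosis gene, at 0.84. Tmco5 (-1.58) and Rassf9 (-1.52) were among the lowest, at 2.19 against 6.54 CPM and 1.67 against 4.81 CPM. These rest on 17 and 13 counts in the gated nuclei, and with a gate without Abcc9 and Kcnj8 they stood at 0.068 and 0.26. The rises did not hold past 1.5-fold under every other choice either, with lowest log2 ratios of 0.35 for Yipf7, 0.27 for Il7r and 0.29 for Snap25.

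Mural genes outside the gate differed little in level. Of 42 contractile and pericyte genes outside the gate 39 were tested, 25 had log2 ratios above 0, 1 was at least 1.5-fold higher and none at least 1.5-fold lower, with a median log2 ratio of 0.018 (-0.19-0.27, the medians of the members' bounds). Over all tested genes 7673 of 15959 lay above 0 and 904 (5.66%) had intervals wholly above it, as did 5 of the 39. None of the 39 had an interval wholly below 0, where 6.86% of all genes did. Gucy1a1, the alpha subunit of the guanylate cyclase that relaxes mural cells in response to nitric oxide, was the gene past 1.5-fold, with 19.7 CPM in gated and 12.3 CPM in other nuclei (log2 ratio 0.68, 0.35-1.001). That call did not hold under 6 other choices, with log2 ratios from 0.19 after thinning to 0.49 with the highest 5% of nuclei, and of 0.31 with a gate without Rgs5. Its partner Gucy1b1 held 42.4 against 46.6 CPM (-0.14). Foxs1, a forkhead factor of pericytes, held 8.89 against 6.00 CPM (0.57, 0.06-1.04), and Heyl, a Notch target of mural cells, 53.3 against 44.7 CPM (0.26, 0.05-0.45). Heyl stood at -0.015 with promoter peaks only and at -0.017 with a gate without Abcc9 and Kcnj8. Pdgfrb, the receptor that recruits pericytes to vessels, did not separate the nuclei, at 86.1 against 84.6 CPM (log2 ratio 0.025). Vtn and Cox4i2, which are high in pericyte RNA, were lower in value, at -0.25 and -0.28, with intervals that crossed 0. Vtn stood at 0.10 after thinning, and Cox4i2 at -1.42 with promoter peaks only.

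Contractile genes gave the same picture. Of 20 contractile genes 18 were tested and 11 lay above 0, none past 1.5-fold in either direction, with a median log2 ratio of 0.049. Tagln, encoding the actin-binding transgelin, held 18.3 against 15.6 CPM (0.23, -0.13-0.56), and Myocd, the coactivator that drives the smooth-muscle programme, 30.9 against 27.2 CPM (0.19, -0.08-0.44). Lmod1, a smooth-muscle actin nucleator, held 43.9 against 36.6 CPM (0.26, 0.04-0.48), but its sign turned under 3 other choices, among them a gate without Abcc9 and Kcnj8 (-0.13). The defining smooth-muscle genes Myh11 (24.4 against 24.7 CPM, -0.02) and Acta2 (29.3 against 31.8 CPM, -0.12; 0.26 after thinning) did not stand higher, nor did Cnn1 (0.04), Pdlim3 (-0.06) or Tpm1 (-0.13). In the per-nucleus view at equal depth, 5000 fragments drawn from each nucleus, both groups had a median of 9 fragments over the 42 genes. Of 350 gated nuclei 20 (5.71%) lay above the 97th percentile of the other nuclei, which 2.75% of the other nuclei exceeded. In this view the shares were 2.86% against 1.83% for fibrogenic, 4.29% against 2.91% for chondrogenic and 1.14% against 2.54% for epithelial genes. Nuclei of 1 library are not replicates, so the shares are a description.

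A second and longer pericyte list was taken from the names, not the values, of the genes that mark pericytes in the study's own single-cell RNA data, so its choice is not independent of the study. It shares 28 genes with the 42 above. Of its 96 genes outside the gate 89 were tested, 46 lay above 0, 1 was at least 1.5-fold higher, 11 had intervals wholly above 0 and 3 wholly below (5.66% and 6.86% of all genes), with a median log2 ratio of 0.0055. Adra2a, a member, held 26.7 against 27.3 CPM (-0.03). Further genes that the study discusses for mural cells are not on this list. Of these, Rgs16, a relative of Rgs5, held 15.7 against 14.3 CPM (0.14) and Dlk1 60.3 against 55.7 CPM (0.11). Thy1, encoding the surface protein CD90, held 16.9 against 24.2 CPM (-0.52, -0.89 to -0.17), but stood at 0.080 when nuclei were thinned before the gate.

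Lists of mural pathways gave medians between -0.028 and 0.087. Transcription factors of mural development had the highest median of these, 0.087, with 16 of 21 above 0 and none past 1.5-fold; Foxs1 and Heyl led, and Mef2c (102 against 113 CPM, -0.15) and Foxc2 (-0.31; 0.085 with a gate without Abcc9 and Kcnj8) had the lowest values named. Notch pathway genes had a median of -0.00046 over 14 genes, with 7 above 0: Hey1 and Hey2, targets of Notch in vessels, stood at 0.17 (-0.086 with the highest 1% of nuclei) and 0.15 (-0.12 with binarised peaks in the gate), and Nrarp, a feedback inhibitor, at -0.09. Of 17 channel and cyclic GMP genes 1, Gucy1a1, was past 1.5-fold, and 4 had intervals wholly above 0, against 5.66% of all genes; Kcnmb1, the smooth-muscle beta subunit of the calcium-activated potassium channel, held 9.79 against 7.71 CPM (0.34, -0.15-0.80), and stood at -0.32 with binarised peaks in the gate. PDGF and TGF-beta vascular genes had a median of -0.0042 over 21 genes and basement membrane genes -0.028 over 16.

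**Figure D4:**
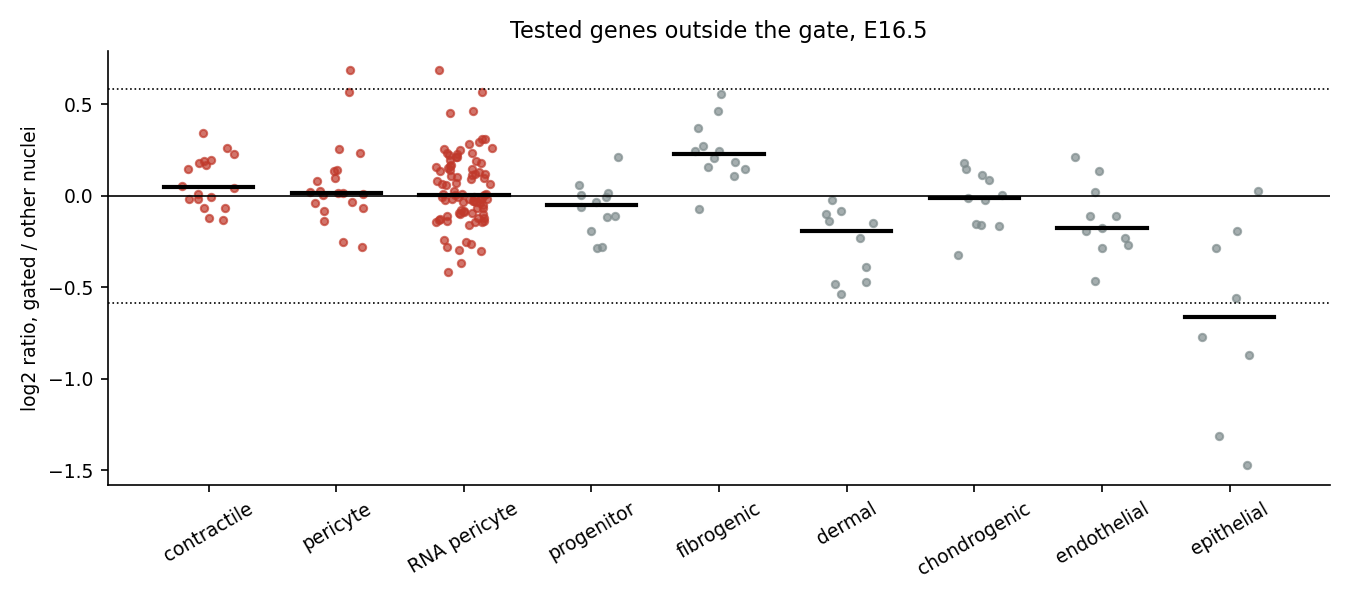
Log2 ratio of gated to other E16.5 nuclei for the genes of each list, each point a tested gene outside the gate, with the median marked. Contractile and pericyte genes centre near 0, fibrogenic genes lie mostly above it (median 0.23), and epithelial genes mostly below (median -0.67).

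Genes of multipotent progenitors differed by less than 1.5-fold throughout. The 12 progenitor genes had a median log2 ratio of -0.049, with 4 above 0. Of their intervals 4 lay wholly below 0 and 1 wholly above, where 1095 of 15959 genes (6.86%) lay wholly below. Osr1 (83.2 against 79.99 CPM), Pdgfra (123 against 128 CPM), Tcf7l2 (311 against 319 CPM) and Scx (13.4 against 13.4 CPM), transcription factors and a receptor of limb connective tissue, differed little. Sox11 held 72.9 against 63 CPM (0.21, 0.04-0.38), but stood at -0.073 with binarised peaks in the gate and -0.036 after thinning. Osr2 (-0.28, -0.48 to -0.10) and Id1 (-0.28, -0.47 to -0.10), an inhibitor of basic helix-loop-helix factors that responds to BMP, had intervals wholly below 0, as did Prrx1 (-0.19) and Hmga2 (-0.11), which were chosen after their values were seen. Id1 stood at 0.093 with a gate without Abcc9 and Kcnj8, while Snai1 (-0.11) and Crabp2 (0.02) had intervals that crossed 0.

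The fibrogenic list had a higher median than the mural lists. Of 12 fibrogenic genes 11 lay above 0 and 5 had intervals wholly above it, none past 1.5-fold, with a median log2 ratio of 0.23, where 7673 of all 15959 genes lay above 0 and 5.66% had intervals wholly above it. Dpt, encoding dermatopontin, held 64.2 against 46.5 CPM (0.46, 0.28-0.65), Clec3b, encoding tetranectin, 76.8 against 59.4 CPM (0.37, 0.20-0.53), and Ly6a 7.47 against 5.08 CPM (0.56, -0.02-1.08). At the other end, Fap held 69.1 against 64.2 CPM (0.11) and Lum, encoding lumican, 24.6 against 25.9 CPM (-0.07). Among the study's RNA marker names, those of Fibro2 and fascia cells had 74 of 94 and 72 of 97 genes above 0 (medians 0.12 and 0.11). Of their intervals 25 and 21 lay wholly above 0, and 0 and 3 wholly below. Those of Fibro1 cells had 41 of 94 above 0 (median -0.027), with 9 intervals wholly above and 12 wholly below. Perineural names had 56 of 94 above 0 (median 0.044), with 16 intervals wholly above and 3 wholly below. Over all genes 5.66% of intervals lay wholly above and 6.86% wholly below. The shift of the fibrogenic list turned with a pair of gate loci. When the gate was built without Abcc9 and Kcnj8 the fibrogenic median was -0.08 and Dpt stood at -0.093, and without Rgs5, Cspg4 or Notch3 it was 0.20, 0.29 and 0.26. In nuclei gated on the 5 fibrogenic loci, Abcc9, Rgs5 and Kcnj8 had ratios of 1.77, 1.30 and 1.30. Cspg4 and Notch3 had 0.951 and 0.821 there. Of 350 nuclei 27 (7.71%) fell in both gates, where 3% of all nuclei were gated. The chondrogenic and endothelial gates shared 13 (3.71%) and 10 (2.86%) with the gated nuclei. The fibrogenic-gated nuclei had a median of 23322 counts, and the part of shallow depth in the overlap was not tested.

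Dermal and epidermal genes had lower values. All 10 dermal fibroblast genes lay below 0 (median -0.19), and 5 had intervals wholly below it, against 6.86% of all genes. Without Abcc9 and Kcnj8 in the gate the dermal median was -0.027, with 4 of the 10 genes above 0. Lef1, a Wnt effector of upper dermis, held 65.1 against 94.5 CPM (-0.54, -0.72 to -0.36; 0.061 with a gate without Abcc9 and Kcnj8), and Col7a1, encoding the collagen that anchors epidermis to dermis, 11.2 against 15.7 CPM (-0.48; 0.058 with binarised peaks in the gate). RNA marker names of the study's clusters named PDFPs and RDFPs lay above 0 in 23 of 97 and 22 of 94 genes. Epithelial genes had the lowest median of any list, -0.67 over 8 genes, of which 4 were at least 1.5-fold lower, against 0.877% of all genes. Among these 4, Krt5 held 2.19 against 5.45 CPM (-1.31) and Krt15 2.32 against 6.43 CPM (-1.47). Trp63, the master factor of basal epidermis, held 43.6 against 53.2 CPM (-0.29) and stood at 0.10 with a gate without Abcc9 and Kcnj8. At the other end, Perp held 15.6 against 17.8 CPM (-0.19) and Krt1 7.73 against 7.60 CPM (0.025). The gated nuclei held 17 counts at Krt5 and 18 at Krt15, so these ratios rest on few fragments. This shift also changed with the gate loci. The epithelial median was -0.0013 without Abcc9 and Kcnj8, -0.31 without Rgs5, -0.76 without Cspg4 and -0.70 without Notch3. Krt5 stood at -0.14 without Abcc9 and Kcnj8 and Krt15 at -0.26 without Rgs5, neither past 1.5-fold. What drives the shift was not tested.

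Markers of cells outside the mesenchyme were looked at for the whole of each list. Of 11 endothelial genes 3 lay above 0 (median -0.18): Cdh5, the endothelial cadherin, held 10.4 against 14.4 CPM (-0.46), Kdr 29.8 against 36.3 CPM (-0.28), Tek 63.5 against 54.9 CPM (0.21), and Pecam1, whose protein CD31 the sort had gated out, 62.4 against 61.4 CPM (0.02). With a gate without Abcc9 and Kcnj8, Cdh5, Kdr and Tek turned to 0.38, 0.082 and -0.24. Blood (7 genes, median -0.08), myogenic (5, -0.15) and Schwann genes (6, -0.12) did not stand above the other nuclei as lists. Sox10 held 8.63 against 6.00 CPM (0.53, -0.01-1.016), and stood at -0.24 with binarised peaks in the gate. Myh3, an embryonic myosin of muscle, held 10.6 against 17.6 CPM (-0.74, -1.199 to -0.31). It did not stay past 1.5-fold with the highest 5% of nuclei (-0.29) or binarised peaks in the gate (-0.20). Nor did it after thinning (-0.22) or without Abcc9 and Kcnj8 in the gate (-0.17). Tenogenic and osteogenic medians were -0.06 and -0.19. The chondrogenic median was -0.01 but followed the make-up of the gate. It was 0.41 without Abcc9 and Kcnj8 and -0.26 without Cspg4. The medians of the members' bounds were 0.14 to 0.65 and -0.52 to -0.03. Without Rgs5 the median was 0.15 and without Notch3 0.047. Stress genes and cell-cycle genes, which could follow the handling of the tissue or the shallow depth, had medians of 0.047 and -0.05, and the part of either in the results was not tested.

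The other 3 gates show how the genes of a list answered when the nuclei were chosen by loci of that list. In nuclei gated on 5 chondrogenic loci, all 6 remaining chondrogenic genes were at least 1.5-fold higher (9.39% of all genes), with a median log2 ratio of 2.37, and in nuclei gated on fibrogenic loci 1 of 7 remaining genes was (1.2% of all genes), with a median of 0.35. For the endothelial gate, none of 7 was (1.06% of all genes), with a median of -0.07. The mural median of 0.018 in the gated nuclei lay nearest to the last, though the endothelial gate leaned mostly on Tie1. Mural genes in the chondrogenic-gated nuclei had a median of -0.24, with 2 higher and 8 lower of 39 where 9.39% of all genes were higher and 9.31% lower, and the gate genes themselves were spread there: Cspg4, open in cartilage, had a ratio of 2.76 and Abcc9 a ratio of 0.316. The endothelial-gated nuclei left all 5 pericyte loci between 0.863 and 1.03.

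The direction was then turned, choosing the highest 3% of nuclei by genes outside the gate and reading the 5 loci, an alternative chosen after the data had been seen. Nuclei chosen by the 42 contractile and pericyte genes had ratios of 1.24 (1.03-1.48) at Rgs5 and 1.203 (1.001-1.43) at Kcnj8. They had 1.2005 (1.11-1.30) at Cspg4, 1.13 (0.988-1.28) at Notch3 and 1.003 (0.885-1.13) at Abcc9. Nuclei chosen by 94 genes of the RNA pericyte list had 1.41 (1.19-1.66) at Rgs5 and 1.28 (1.08-1.52) at Kcnj8. They had 1.26 (1.11-1.41) at Notch3, 1.18 (1.09-1.27) at Cspg4 and 1.09 (0.969-1.22) at Abcc9. With the highest 1% in place of 3%, the RNA pericyte list gave 1.6 (1.203-2.09) at Rgs5 and 1.43 (1.06-1.88) at Kcnj8. The 42 genes then gave 1.16 (0.80-1.63) and 1.36 (0.97-1.84). The median log2 ratio over all genes was itself above 0 in these choices. It was 0.079 at 3% and 0.14 at 1% for the RNA pericyte list, and 0.038 and 0.079 for the 42 genes. Of the 350 nuclei of the RNA pericyte choice 26 (7.43%) were among the gated nuclei, and of the 42-gene choice 24 (6.86%). Of all nuclei 3% were gated. Choices by the study's RNA perineural, Fibro2 and chondrocyte names, given below, overlapped at 5.14%, 5.14% and 4.29%. The RNA pericyte and 42-gene choices had medians of 21712.5 and 19874 counts per nucleus. Gated nuclei were also shallow, and the part of depth in the overlaps was not tested.

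Those ratios stood beside a difference in where the counts lay. The nuclei chosen by the RNA pericyte list had a median of 40.7% of counts in promoter peaks, above the 36.4% of the other nuclei in the gate as applied, and its part in the ratios was not tested. Nuclei chosen by RNA chondrocyte names, with 43.9% in promoters, had 0.682 at Rgs5, 0.321 at Abcc9, 1.015 at Kcnj8, 2.98 at Cspg4 and 0.867 at Notch3. Nuclei chosen by RNA perineural names had 1.21 (1.01-1.43) at Rgs5, 1.17 (1.05-1.30) at Abcc9, 1.08 at Kcnj8, 1.04 (0.964-1.13) at Cspg4 and 1.14 (1.01-1.28) at Notch3. Those chosen by RNA Fibro2 names had 1.11 at Rgs5, 1.78 at Abcc9, 1.46 at Kcnj8, 0.857 (0.788-0.930) at Cspg4 and 1.09 (0.960-1.22) at Notch3. Of 5 intervals, 4 lay wholly above 1 after the RNA pericyte choice and 3 after each of the 42-gene and perineural choices. The Fibro2 choice gave 2 and the chondrocyte choice 1. Rgs5 and Notch3 were highest after the RNA pericyte choice among these 5 choices, with intervals that overlapped those of the perineural choice. Cspg4 was highest after the chondrocyte choice. Abcc9 and Kcnj8 had their highest values after the Fibro2 choice, though for Kcnj8 that value lay within the interval of the RNA pericyte choice. The RNA perineural and RNA pericyte lists share genes, among them Gucy1a1, Foxs1, Heyl, Tagln, Acta2 and Adra2a. The perineural choice was thus made partly by pericyte names.

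**Figure D5:**
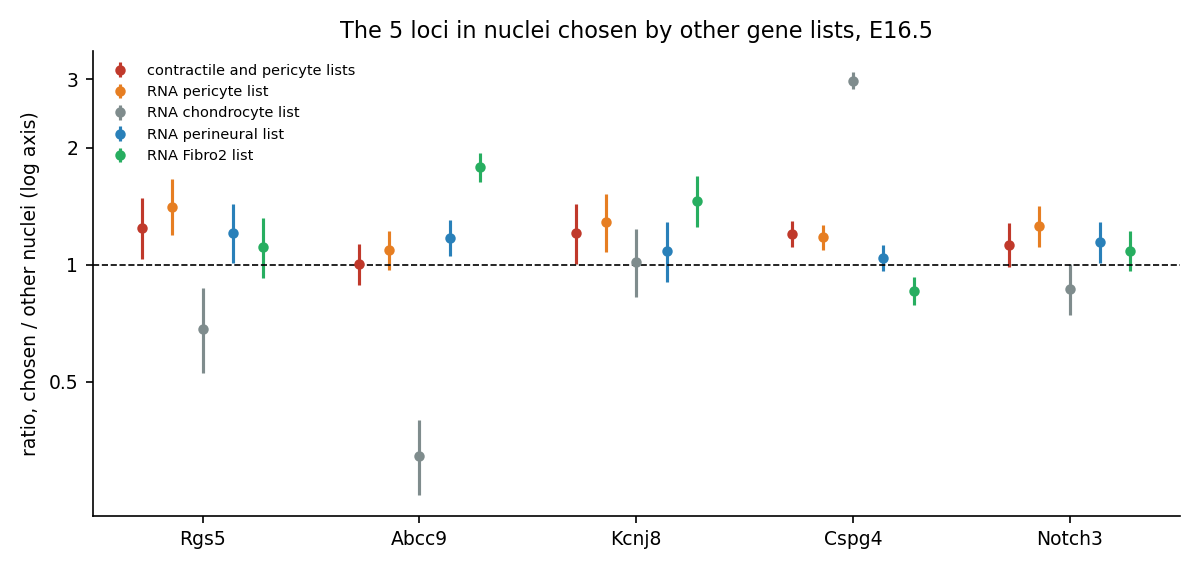
Ratio at the 5 loci (log axis) in the highest 3% of E16.5 nuclei chosen by gene lists outside the gate, with exact 95% counting intervals. Rgs5 reaches 1.41 for the RNA pericyte list, Cspg4 reaches 2.98 for the chondrocyte list, and Abcc9 reaches 1.78 for the Fibro2 list.

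Single regions outside the gate windows were called lower more often than higher by their ratio, but not by their intervals. Of 84263 peaks tested, 535 were at least 2-fold higher in the gated nuclei (0.635%) and 3319 at least 2-fold lower (3.94%). By intervals wholly above or below a ratio of 1, 5566 regions were higher (6.61%) and 5169 lower (6.13%). The part of low expected counts in the calls by ratio was not tested. Few were promoters: 0.0552% of promoter peaks were higher and 0.614% lower, against 0.674% and 5.01% of intronic and 0.888% and 4.48% of intergenic peaks. The highest by the lower bound of its ratio lay in an intron of Hnrnpr (chr4:136333022-136333771), with 10.7 against 3.48 CPM, a ratio of 3.07 (2.196-4.199). The next was an intergenic peak at chr19:18336482-18338572, with 24.5 against 9.02 CPM, a ratio of 2.71 (2.19-3.33). Among the lower peaks, the Krt16 promoter (chr11:100248763-100249557) had no count in the gated nuclei. At the rate of gated and other nuclei pooled, 12.7 fragments were to be had there. An intronic peak of Spp2 (chr1:88419938-88420552) had 1 fragment where 11.8 were to be had at the pooled rate.

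Higher and lower regions differed from all tested regions in base composition. Over the central 300 bases, the median GC content was 42% in higher, 46.3% in lower and 48.3% in all tested regions, and promoters made up 1.495%, 2.68% and 17.2% of them, so motif shares are a description beside those values. Letters were searched on both strands. CArG boxes, the sites of serum response factor in smooth-muscle genes (CC, 6 of A or T, GG), were in 2.62% (1.44-4.35) of higher, 1.81% of lower and 1.53% of all tested regions. MEF2 letters (CTA, 4 of A or T, TAG) were in 1.31%, 1.14% and 0.782%, and the EBF motif was in 0.748%, 1.024% and 1.18%. RBPJ letters (TGGGAA), the site through which Notch acts, were in 29.3%, 30.6% and 28.6%, and forkhead letters (TGTTTAC) in 4.30%, 4.85% and 4.05%. TEAD letters (GGAATG) stood above the share of all regions among the higher ones, at 23.9% (20.4-27.8), 20.5% and 18.6%.

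E-box letters (CAGCTG), bound by basic helix-loop-helix factors, were in 15.1% (12.2-18.5) of higher, 24.3% (22.8-25.8) of lower and 20.9% of all tested regions. RUNX letters (TGTGGTT) were in 6.36%, 9.79% (8.80-10.9) and 6.76%, and AP-1 letters (TGANTCA) in 14.4% (11.5-17.7), 17.9% (16.6-19.2) and 13.5%. SOX letters (ACAATGG) and the NFI motif were in 2.43% and 1.12% of higher, 4.10% and 1.90% of lower, and 3.29% and 1.52% of all tested regions. Regions of 1 library share their nuclei and are not independent of each other.

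The same rule was applied to the other libraries, with their own peaks. At E14.5 the gate took 252 nuclei against 8145 others, with median depths of 13117 and 15028 counts. The gate loci themselves stood at log2 ratios of 3.32 for Rgs5, 2.76 for Abcc9, 2.01 for Kcnj8, 0.66 for Cspg4 and 0.86 for Notch3, as the choice made them. Outside the gate, 46 of 14645 genes were at least 1.5-fold higher (0.314%), and the 36 tested contractile and pericyte genes had a median log2 ratio of -0.0036 with none past 1.5-fold. At E12.5, where 80 nuclei stood against 2584 others (13699 against 18060 counts), 162 of 8894 genes were at least 1.5-fold higher (1.82%), and 23 tested mural genes had a median of 0.04, none higher and 2 lower past 1.5-fold, where 6.62% of all genes were lower. The gate loci at E12.5 had log2 ratios of 2.98 at Kcnj8, 2.48 at Abcc9, 1.91 at Rgs5, 1.47 at Notch3 and 1.19 at Cspg4. The log2 ratios of genes at E16.5 had a Spearman correlation of 0.032 with those at E14.5 across 14641 genes and of 0.037 with those at E12.5 across 8892 genes, where genes are not independent replicates. The fibrogenic median was 0.03 at E14.5 over 11 genes and -0.20 at E12.5 over 3 genes, against 0.23 at E16.5.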

How the data were processed

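Single-nucleus ATAC-seq had been made from sorted Hic1-lineage forelimb cells, 1 library per age. As deposited, the values are raw counts of transposase cuts for each nucleus and called peak, mostly even because a fragment has 2 ends. Per the labels and methods the authors had used bcl2fastq and Cell Ranger ATAC 1.1.0 on mm10, while the deposited matrix headers name 1.2.0 for the E16.5 matrix and 1.0.1 for both earlier ages. Peaks and nuclei had been called in each library separately, and no replicate was pooled.

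Counts were summed over the gated and over the other nuclei and given as CPM. Ratios carry exact conditional binomial (Clopper-Pearson) 95% intervals on fragment equivalents, counts divided by 2 and rounded up. With 1 sample per group no test was run, nuclei are not replicates, and intervals cover counting error only. Genes were protein-coding GENCODE M21 genes on the autosomes and X, with peaks assigned over the body and 2000 bases upstream. A gene was tested at 20 or more expected fragments and a region at 10 or more. Promoter peaks touched 1000 bases before to 100 after a start site. Peaks on all 21 chromosomes lay within the lengths of GRCm38.p6, the RefSeq genome used for sequence. Python 3.11.15, numpy 2.4.6, scipy 1.17.1, pandas 2.3.3, matplotlib 3.10.9 and bedtools 2.31.1 were used, and the ratio step was tested on simulated data with 200 changed genes.

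The nuclei and all gene lists were chosen with earlier results of these data known. Genes named were drawn from the 3 highest and 2 lowest ratios of each list, the mural and progenitor genes that the study discusses, and the 10 largest rises and falls of all genes over 1000000 bases from the gate, not all of which are printed; other names were chosen after their values were seen. No doublet caller was run, and leaving out the deepest 5% of nuclei was an alternative. The authors' clusters were not used here.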

Additional observations from a re-analysis of the deposited data

Results flagged for a closer look

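Of 14641 genes tested at both E14.5 and E16.5, 83 (0.567%) had intervals on opposite sides of 0 in the 2 libraries and 105 (0.717%) on the same side. Those among the genes named by list are given here, as values that the same choice of nuclei put in opposite directions. Adcy6, an adenylate cyclase that supplies cyclic AMP in mural and other cells, had a log2 ratio of -0.50 (-0.92 to -0.11) at E14.5 and 0.35 (0.09-0.59) at E16.5, where it was 0.029 with binarised peaks in the gate. Itgb4, encoding the integrin beta-4 subunit that perineurial cells and basal epidermis use, had -0.44 (-0.85 to -0.06) at E14.5 and 0.25 (0.03-0.46) at E16.5. With 1 library per age the difference was not tested.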

How the results depend on the processing

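In all, 18 other settings were tried. Of 130 alternatives to the main results, 117 stayed within the spread allowed and 13 moved. All 57 alternatives of the mural, RNA pericyte and progenitor medians stayed: the contractile and pericyte median ran from -0.05 to 0.07, the RNA pericyte median from -0.05 to 0.06, the progenitor median from -0.10 to -0.02, and the mural median from -0.04 to -0.01 at E14.5 and -0.0046 to 0.20 at E12.5. Genes at least 1.5-fold higher numbered 93 with the highest 1% of nuclei, 56 from 5000 counts per nucleus and 225 with no minimum on expected fragments, in place of 34. Genes at least 1.5-fold lower numbered 335 with the highest 1%, 89 after thinning, 545 with no minimum, 223 with a gate without Notch3 and 69 with a gate without Abcc9 and Kcnj8, in place of 140. Other list medians turned or moved with the gate, the chondrogenic to 0.41 and the fibrogenic to -0.08 without Abcc9 and Kcnj8. The median left-out ratio was 1.18, 0.796 and 0.873 with gates built without Notch3, without Rgs5, and without Abcc9 and Kcnj8. Regions past 1.5-fold numbered 4548 higher and 9958 lower, and all 22 motif shares stayed. The causes were not tested, except that a lower fold, fewer nuclei or no minimum admits more features by construction.

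Among 58 named genes, 41 had the other sign in at least 1 setting, and 16 of them were genes whose interval as reported lay wholly on 1 side of 0, which are given here. With binarised peaks in the gate Lmod1 was -0.050, Mef2c 0.050, Sox11 -0.073 and Col7a1 0.058 (log2 ratios). After thinning Lmod1 was -0.019, Thy1 0.080 and Sox11 -0.036. With promoter peaks only Heyl was -0.015 and Mef2c 0.11. With a gate without Abcc9 and Kcnj8 Heyl was -0.017, Lmod1 -0.13, Mef2c 0.19, Id1 0.093, Dpt -0.093, Lef1 0.061, Trp63 0.10, Cdh5 0.38, Kdr 0.082, Tek -0.24, Tmco5 0.068, Rassf9 0.26 and Sox6 0.20. The left-out median could not be had for genes over 1000000 bases from the gate or with no minimum. No paired analysis was possible because each age had 1 library.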
